A study of Mus musculus with 2 samples.

Results

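The interleukins and interleukin receptors of mouse tongue were taken from the deposited expression table as every row whose gene symbol begins with Il followed by a digit. This gave 71 rows of 18498, with 69 distinct symbols, because *Il11ra2* is listed in 3 rows with equal values. By role, 27 rows were ligands, 39 were receptor chains, and 5 were antagonists, binding proteins and others (*Il1rn*, *Il1f5*, *Il18bp*, *Il22ra2* and *Il4i1*). Every one of the 71 rows was counted, with no filter on low values, and the choice of rows used no measured value.

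The study compared the circumvallate papillae (CvP), the taste papillae at the back of the tongue, with tongue epithelium that holds no papillae (Epi), in a search for genes with a higher level in the papillae. Both tissues came from male C57BL/6J mice of 12 to 30 weeks with no treatment or engineered allele, and the RNA of at least 20 mice was pooled for each tissue. Poly(A) RNA of each pool gave 1 library, so there was no replicate, no p-value was calculated, and every comparison was between 2 libraries. For RT-PCR the CvP sample is said to include epithelium next to the taste buds, and for the libraries the dissection is not given in the sources used here.

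The values were RPKM, mapped reads divided by the length of the exon model and by the size of the library, which the authors obtained with ERANGE after mapping with Bowtie. From the step between the lowest values in rows of 0.1 kb, the libraries held about 28373131 (CvP) and 27910029 (Epi) mapped reads, and the reads behind each gene were estimated from its RPKM, its length and this depth. Intervals in the text are 95% exact (Clopper-Pearson) intervals from these reads, and cover counting error only, not the spread between mice or between preparations. For a gene listed at 0 in Epi, the fold was calculated against a floor of 3 Epi reads per library and is a lower bound. Of the cell type markers, all 6 taste cell genes were at least 3-fold higher in CvP (summed RPKM 332 against 5.39, *Pkd2l1* at 0 in Epi), while all 3 listed salivary gland genes and all 5 skeletal muscle genes were at least 3-fold higher in Epi (402 against 2.81 and 42.6 against 2.84, *Dcpp1* at 0 in CvP). Keratinocyte genes were high in both, at a summed RPKM of 31213 in CvP and 72665 in Epi.

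Interleukins are secreted proteins by which leukocytes and epithelial cells signal to each other through receptor chains on the target cell. Members of the IL-1 family act through receptors that carry a TIR domain and use the adaptor MyD88, the IL-17 family acts through the adaptor Act1, and most other interleukins act through receptor chains bound to JAK kinases, which activate STAT factors. In stratified epithelium, keratinocytes store several IL-1 family ligands and release them on injury, and soluble antagonists and decoy receptors limit the response.

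The sequence upstream of the genes is shown for 4 members whose results are given below, a pair of neighbouring genes that were higher in CvP (*Il1a*, *Il1b*) and a pair of neighbouring genes that were higher in Epi (*Il1f10*, *Il1f5*). Each is the 250 bases before the transcription start in RefSeq on GRCm38.p6, a later build than that of the expression table. They are *Il1a* on the minus strand at chr2:129309973-129310222, *Il1b* on the minus strand at chr2:129371140-129371389, *Il1f10* on the plus strand at chr2:24290946-24291195, and the second of the *Il1f5* windows on the plus strand at chr2:24277021-24277270. Capitals mark matches to the motifs described in the next paragraph.
Il1a: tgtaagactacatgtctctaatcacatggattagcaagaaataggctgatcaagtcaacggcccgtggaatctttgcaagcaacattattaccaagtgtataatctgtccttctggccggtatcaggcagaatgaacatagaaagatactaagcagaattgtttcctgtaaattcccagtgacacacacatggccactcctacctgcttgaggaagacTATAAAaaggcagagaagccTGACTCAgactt
Il1b: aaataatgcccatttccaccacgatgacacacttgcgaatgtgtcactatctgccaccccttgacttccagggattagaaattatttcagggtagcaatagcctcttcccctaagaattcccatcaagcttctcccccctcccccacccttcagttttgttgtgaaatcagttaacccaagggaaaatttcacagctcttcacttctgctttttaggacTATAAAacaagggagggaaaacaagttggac
Il1f10: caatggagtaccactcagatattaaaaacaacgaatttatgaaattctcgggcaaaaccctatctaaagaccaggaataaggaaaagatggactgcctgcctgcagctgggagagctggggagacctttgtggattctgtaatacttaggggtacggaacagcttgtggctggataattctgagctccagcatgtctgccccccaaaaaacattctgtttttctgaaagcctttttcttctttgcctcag
Il1f5: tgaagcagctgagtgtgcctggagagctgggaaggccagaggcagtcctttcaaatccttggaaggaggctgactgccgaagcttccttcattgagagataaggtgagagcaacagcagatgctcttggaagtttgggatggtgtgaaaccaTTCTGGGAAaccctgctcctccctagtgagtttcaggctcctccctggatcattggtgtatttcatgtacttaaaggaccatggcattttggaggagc

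4 motifs were searched on both strands of these windows, the TATA box (TATAAA), the AP-1 site (TGANTCA), the STAT site (TTCNNNGAA) and the NF-kB site. In *Il1a*, TATAAA lay from 32 to 27 bases before the start and an AP-1 match from 12 to 6 bases before it, and in *Il1b* TATAAA lay from 31 to 26 bases before the start. The printed *Il1f5* window held a STAT match from 98 to 90 bases before its start, and the *Il1f10* window held none of the 4 motifs. The other *Il1f5* window, at chr2:24276704-24276953 and not printed, held none of them either. No matches overlapped in the printed windows. RefSeq promoter windows were at hand for 54 of the 69 symbols, in 68 windows, of which some belong to the same gene and overlap. AP-1 letters were in 14.7% of the member windows (10 of 68) against 6.75% of all 32851 windows, and STAT letters in 11.8% (8) against 7.02%. TATAAA was in 14.7% (10) against 12.4%, and NF-kB letters in 7.35% (5) against 7.25%. These shares describe letters in a window and were given no test.

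On the log2 scale with a pseudocount of 0.1 RPKM, 15 of the 71 members (21.1%) were at least 3-fold higher in CvP, against 15.0% of all rows (2766 of 18498). In the opposite direction, 4 members (5.63%) were at least 3-fold higher in Epi, against 1.63% of all rows (302). Both shares of the members lay above the share in the table, and since each rests on few genes in a single pair of libraries, no more was read from them. The study's own criteria, an RPKM of over 10 in CvP together with a ratio of over 3, were met by 1 member, *Il1a*, and by 2.35% of all rows (435).

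The same counts were taken for ligands and receptors apart. Of the 27 ligands, 9 (33.3%) were at least 3-fold higher in CvP (*Il1a*, *Il1b*, *Il7*, *Il10*, *Il17c*, *Il19*, *Il23a*, *Il24* and *Il25*) and 2 (7.41%) in Epi (*Il1f6* and *Il1f10*, of which the latter encodes a ligand that is also described as an antagonist). Of the 39 receptor rows, 6 (15.4%) were at least 3-fold higher in CvP (*Il3ra*, *Il17rb*, *Il17rd*, *Il18r1*, *Il18rap* and *Il20ra*) and 1 (2.56%) in Epi (*Il22ra1*). The receptor share in CvP was thus close to the 15.0% of the table. Among the 5 other members, the antagonist *Il1f5* was 3-fold higher in Epi. The median log2 CvP/Epi ratio was 0.42 for the ligands, 0.66 for the receptors and 0.26 for the other members, beside 0.49 for all rows. For 8 of the 15 genes called in CvP (*Il1a*, *Il1b*, *Il7*, *Il10*, *Il17rd*, *Il18r1*, *Il23a* and *Il25*) and 3 of the 4 called in Epi (*Il1f5*, *Il1f6* and *Il1f10*), the whole counting interval lay at or above 3-fold. For the other 7 CvP genes and for *Il22ra1* it reached below 3-fold. When every ratio was divided by the median ratio of 1.31 in the 10363 rows that reached an RPKM of 1 in both libraries, 7 of the 15 CvP calls were lost (*Il1a*, *Il17rb*, *Il18r1*, *Il18rap*, *Il19*, *Il20ra* and *Il24*). When both libraries were brought to a common RPKM sum, *Il1f5* and *Il1f6* lost the Epi call, with log2 ratios of -1.38 and -1.49.

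**Figure D1:**
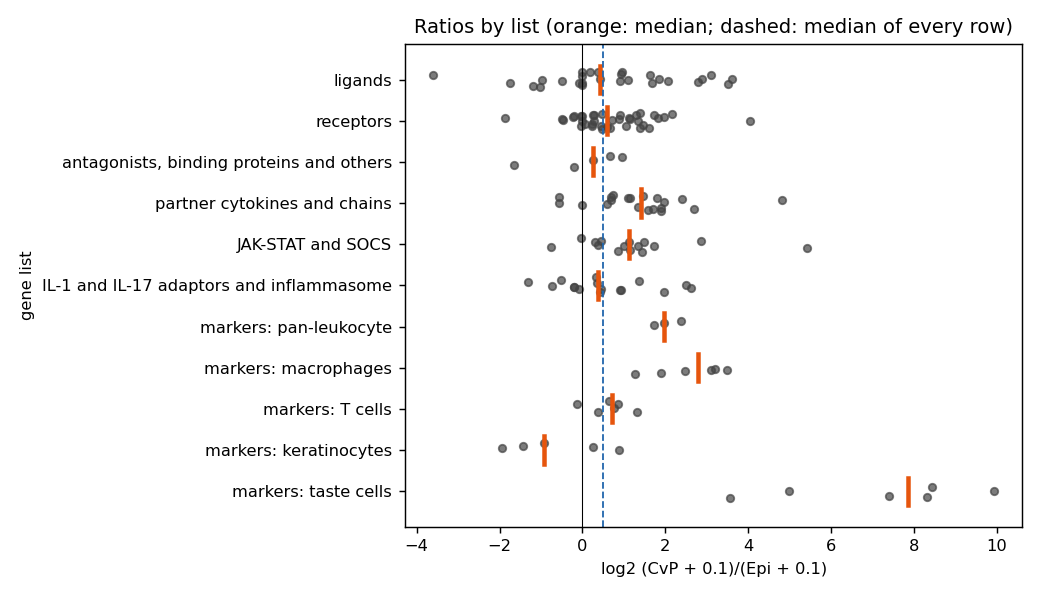
Log2 CvP/Epi ratio (x axis, RPKM + 0.1) of each gene in each gene list (y axis), with 1 point per gene, each symbol once, an orange bar at the list median and a dashed line at the median of every row, 0.49. The lists of the interleukins spread to both sides of 0, and no gene of the partner, JAK-STAT and adaptor lists was 3-fold higher in Epi.

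The IL-1 family supplied the ligands with the highest levels in both libraries. *Il33*, a nuclear alarmin of barrier cells (chromosome 19, 29999604 to 30035205 of NCBI37/mm9), was at 148 RPKM in CvP and 68.7 in Epi, a CvP/Epi ratio of 2.15 (2.08 to 2.23). *Il18*, which is stored as a precursor that caspase-1 cleaves, had 66.4 in CvP and 135 in Epi, a ratio of 0.490 (0.459 to 0.524). By the deposited RPKM, *Il33* was thus the highest interleukin of the CvP, and *Il1f6*, with 272, that of the Epi. The table lists lengths of 5.28 kb for *Il33* and 10.3 kb for *Il1a*, which had 70.6 in CvP. Their longest coding transcripts have 2.54 and 1.97 kb, so the order of these genes in CvP is not settled. The 5 highest members together held 54.1% of the RPKM sum over all member symbols in CvP, and 68.7% in Epi.

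The ligands of the IL-36 receptor were higher in Epi. These are *Il1f6*, *Il1f8* and *Il1f9*, which encode the agonists IL-36 alpha, beta and gamma. *Il1f6* had an RPKM of 80.4 in CvP and 272 in Epi, 3.38-fold higher in Epi, with a CvP/Epi ratio of 0.296 (0.281 to 0.311). *Il1f8* had 49.2 and 97.1, a ratio of 0.507 (0.478 to 0.537), and *Il1f9* had 46.7 and 107, a ratio of 0.436 (0.415 to 0.459). Their summed RPKM was 176 in CvP and 476 in Epi. *Il1f5*, the antagonist of the same receptor, moved with them, from 43.4 in CvP to 137 in Epi, a ratio of 0.317 (0.305 to 0.330). The agonists together were 4.06 times the *Il1f5* level in CvP and 3.48 times in Epi. *Il1f6* alone was 1.85 times *Il1f5* in CvP (1.75 to 1.96) and 1.99 times in Epi (1.93 to 2.05), so the agonist and the antagonist differed between the tissues by nearly the same factor. *Il1f8* was 1.13 times *Il1f5* in CvP and 0.710 times in Epi, and *Il1f9* 1.08 and 0.783 times. These quotients between genes depend on the lengths, listed at 5.14 kb for *Il1f8* and 4.81 kb for *Il1f5*. Their longest coding transcripts have 1.22 and 2.84 kb, so which of *Il1f8* and *Il1f5* was higher in Epi is not settled.

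*Il1f10*, which encodes IL-38, a further IL-1 family member described as an antagonist, had the largest fold towards the Epi of all members. It had an RPKM of 0.46 in CvP (7 estimated reads) and 6.73 in Epi (101 reads), 14.6-fold higher in Epi (6.85 to 37.3). It was low beside its neighbours in both libraries, yet its CvP/Epi ratio of 0.0684 (0.0268 to 0.146) was below the interval of every other gene of its cluster. The keratinocyte marker *Krt14* was also at least 3-fold higher in Epi (1140 against 295), whereas *Krt5* was not (1271 against 1506), and the part of epithelial make-up in these ratios was not tested.

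The genes for IL-1 itself were higher in CvP. *Il1a*, the cell-bound form, had an RPKM of 70.6 in CvP and 19.7 in Epi, a ratio of 3.59 (3.36 to 3.85). *Il1b*, the form secreted after cleavage, had 8.31 and 1.11, a ratio of 7.49 (5.42 to 10.6). *Il1rn*, the receptor antagonist, had 25.7 and 29.6, a ratio of 0.868 (0.814 to 0.925), and this small excess in Epi turned to a log2 CvP/Epi ratio of 0.07 when both libraries were brought to a common RPKM sum. By the deposited RPKM, *Il1a* was 2.75 times *Il1rn* in CvP (2.60 to 2.91) and 0.664 times in Epi (0.617 to 0.715). The order in Epi depends on the lengths, which the table lists at 10.3 kb for *Il1a* and 5.43 kb for *Il1rn* while their longest coding transcripts have 1.97 and 2.47 kb: with the transcript lengths in place of the listed ones, the quotients would be 6.51 and 1.57. *Il1b* was 0.324 times *Il1rn* in CvP and 0.0375 times in Epi. *Il1a* exceeded *Il1b* in both libraries, 8.50-fold in CvP and 17.7-fold in Epi. The 3-fold call of *Il1a* rested on the scaling, since its log2 ratio of 1.84 became 1.45 after division by the median ratio.

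Many of these genes are neighbours. Within gaps of 200 kb, 34 member symbols fell into 12 clusters. The cluster of *Il1f8*, *Il1f9*, *Il1f6*, *Il1f5*, *Il1f10* and *Il1rn* on chromosome 2 (24008692 to 24207011 of NCBI37/mm9, 198 kb) had all 6 genes higher in Epi, *Il1rn* with the exception under common-sum scaling given above. On the same chromosome, *Il1a* and *Il1b* (129125346 to 129196856, 71.5 kb) were both higher in CvP. The receptor cluster on chromosome 1 (40141613 to 40606142, 465 kb) held *Il1r2*, *Il1r1*, *Il1rl2*, *Il1rl1*, *Il18r1* and *Il18rap*, of which 5 were higher in CvP (*Il1rl2* not after division by the median ratio) and *Il1rl1* had equal values. The cluster of *Il24*, *Il19* and *Il10* on chromosome 1 (132778651 to 132921547, 143 kb) had all 3 genes higher in CvP. *Il28ra* and *Il22ra1* on chromosome 4 (135242372 to 135307280) were both higher in Epi (*Il28ra* not on the common-sum scaling), while *Il17re* and *Il17rc*, which lie within 24.7 kb on chromosome 6 (113408478 to 113433132), lay on opposite sides. Genes of a cluster are not independent observations, and no test was made of these patterns.

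**Figure D2:**
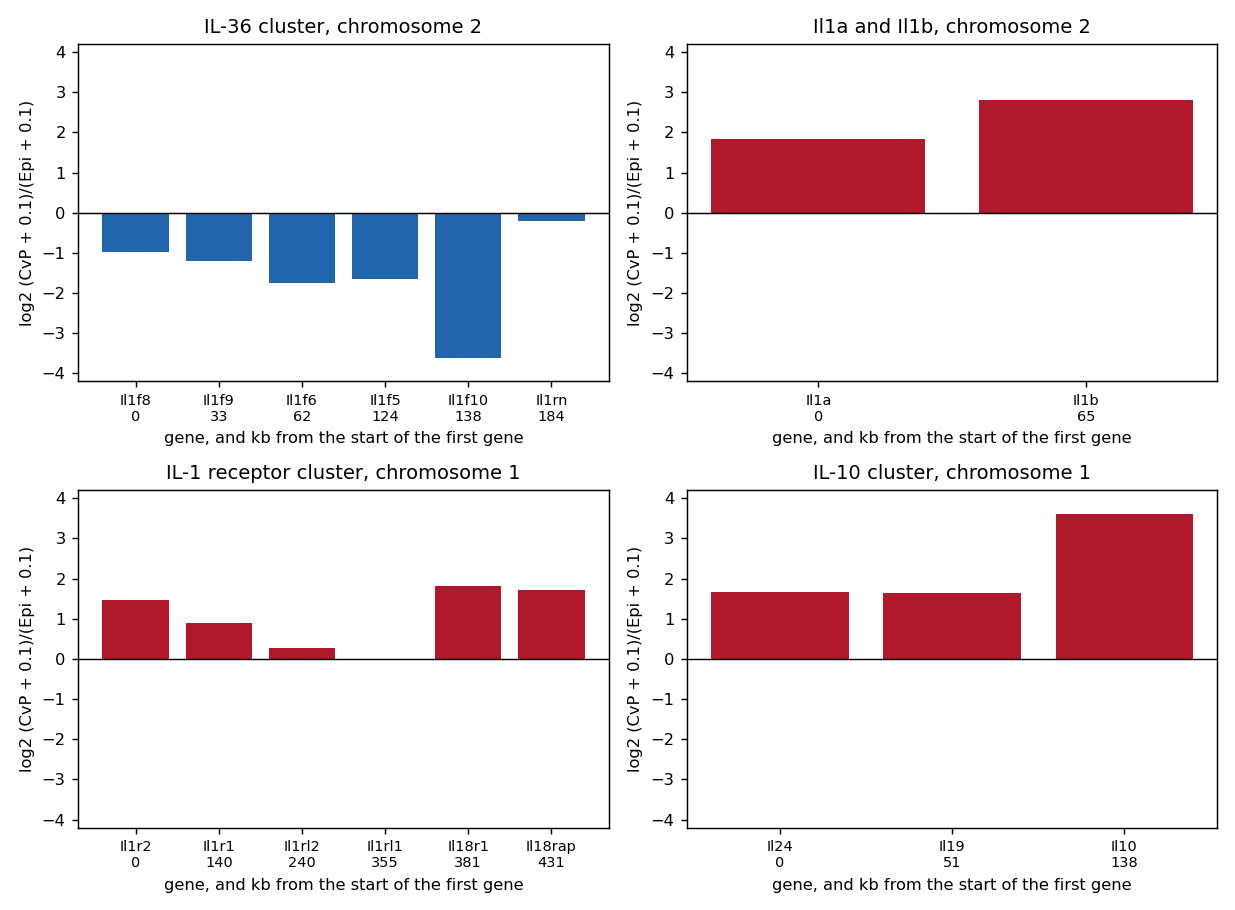
Log2 CvP/Epi ratio (y axis, RPKM + 0.1) of the genes in 4 clusters, in chromosome order with the distance in kb from the start of the first gene (x axis), 1 bar per gene and no error bars since each tissue had 1 library. All 6 bars of the *Il1f* cluster point to the Epi, that of *Il1rn* not on the common-sum scaling, and those of *Il1a* and *Il1b* to the CvP.

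By the deposited RPKM, the decoy was the highest of the IL-1 family receptor chains in both libraries. *Il1r2*, which binds IL-1 without signalling, had the highest RPKM of any receptor in CvP, 84.4, against 30.5 in Epi, a ratio of 2.77 (2.59 to 2.97). *Il1r1*, the signalling receptor, had 5.54 and 2.96, a ratio of 1.87 (1.66 to 2.12). The decoy was 15.2 times the signalling receptor in CvP (14.1 to 16.5) and 10.3 times in Epi (9.18 to 11.6). The size of these quotients depends on the lengths, listed at 6.19 kb for *Il1r2* and 5.69 kb for *Il1r1*. Their longest coding transcripts have 1.34 and 4.83 kb. For *Il1rl2* the table lists 18.3 kb against a longest coding transcript of 1.95 kb, so the order of *Il1r2* and *Il1rl2* in Epi is not settled. *Il1rap*, the chain shared by IL-1, IL-33 and IL-36 receptors, had 3.29 and 2.71, a ratio of 1.21 (1.05 to 1.40), and *Il1rl2*, the IL-36 receptor, 23.8 and 19.6, a ratio of 1.22 (1.12 to 1.32). Both of these ratios fell below 1 when divided by the median ratio, so that the IL-36 receptor had no stable direction while its ligands were higher in Epi under every scaling tried. *Il1rl1*, the receptor of IL-33, was near the limit of detection, with an RPKM of 0.01 in each library (2 and 1 estimated reads), although *Il33* was among the highest members.

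The IL-18 receptor chains were low in both libraries. *Il18r1* had an RPKM of 0.43 in CvP and 0.05 in Epi, a ratio of 8.60 (3.69 to 24.5), and *Il18rap* 0.33 and 0.03, a ratio of 11.0 (2.72 to 96.3). The direction was opposite to that of their ligand *Il18*. *Il18bp*, the soluble inhibitor of IL-18, had 1.36 and 0.82, a ratio of 1.66 (1.05 to 2.65), and *Il18* was 48.9 times *Il18bp* in CvP and 165 times in Epi.

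Among the IL-17 family receptors, *Il17rd* stood out. *Il17rd* (chromosome 14, 27852187 to 27920472), which encodes SEF, an inhibitor of FGF signalling that also binds IL-17 receptor chains, had an RPKM of 2.52 in CvP (588 estimated reads) and 0.06 in Epi (14 reads), a ratio of 42.0 (24.8 to 77.3). This was the highest ratio among members with reads in both libraries. *Il17rb*, the chain that binds IL-25, had 0.94 and 0.24, a ratio of 3.92 (2.15 to 7.63). The shared chain *Il17ra* had 6.40 and 4.59, a ratio of 1.39 (1.24 to 1.56), and *Il17re*, the receptor of IL-17C, 4.75 and 2.96, a ratio of 1.60 (1.36 to 1.89). *Il17rc*, which pairs with *Il17ra* to bind IL-17A and IL-17F, was higher in Epi, with 35.6 against 49.4, a ratio of 0.721 (0.683 to 0.761). *Il17rc* was 5.57 times *Il17ra* in CvP and 10.8 times in Epi. The size of these quotients depends on the lengths, listed at 5.12 kb for *Il17rc* and 7.25 kb for *Il17ra*, while their longest coding transcripts have 2.30 and 3.97 kb.

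The IL-17 family ligands were low in both libraries, all under an RPKM of 1. *Il25*, a ligand that tuft cells make in the gut and airway, had an RPKM of 0.76 in CvP (21 estimated reads) and was listed at 0 in Epi, at least 6.96-fold higher in CvP. *Il17c*, an epithelial ligand, had 0.32 in CvP (6 reads) and 0 in Epi, at least 1.95-fold higher, so that its 3-fold call depends on the pseudocount. *Il17a*, the ligand of T cells and innate lymphoid cells, had 0.09 in CvP (3 reads) and 0 in Epi, and *Il17d* 0.26 and 0.17. The T cell markers summed to an RPKM of 0.75 in CvP and 0.23 in Epi, with 0 of 6 at 3-fold and *Cd3d* and *Cd3e* at 0 in Epi.

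Ligands and receptors of the IL-10 family had no common direction. *Il10*, an inhibitor of inflammation, had an RPKM of 1.86 in CvP (69 reads) and 0.06 in Epi (2 reads), a ratio of 31.0 (8.26 to 261). Its receptor chains did not share this ratio: *Il10ra* had 1.69 and 1.42, a ratio of 1.19 (0.944 to 1.50), and *Il10rb*, a chain shared with the IL-22 and interferon lambda receptors, 23.5 and 24.2, a ratio of 0.973 (0.912 to 1.04). *Il19* and *Il24*, which act on keratinocytes, were seen in CvP alone, at 0.21 (6 reads, at least 1.99-fold higher) and 0.22 (7 reads, at least 2.28-fold higher). Their receptor chains were *Il20ra*, with 2.04 in CvP and 0.45 in Epi, a ratio of 4.53 (2.95 to 7.22), and *Il20rb*, with 15.0 and 10.9, a ratio of 1.37 (1.25 to 1.50). The receptor chains were therefore present in both tissues at a higher RPKM than the ligands. *Il22ra1*, which binds IL-22 and also forms receptors for IL-24, was the receptor called in Epi, with 1.27 in CvP and 4.89 in Epi, a ratio of 0.260 (0.194 to 0.344). *Il28ra*, the interferon lambda receptor next to it, had 3.64 and 4.22, a ratio of 0.863 (0.754 to 0.986) that reached 1 or more on the common-sum scaling (log2 0.06). *Il22* itself was at 0 in CvP and 0.04 in Epi.

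**Figure D3:**
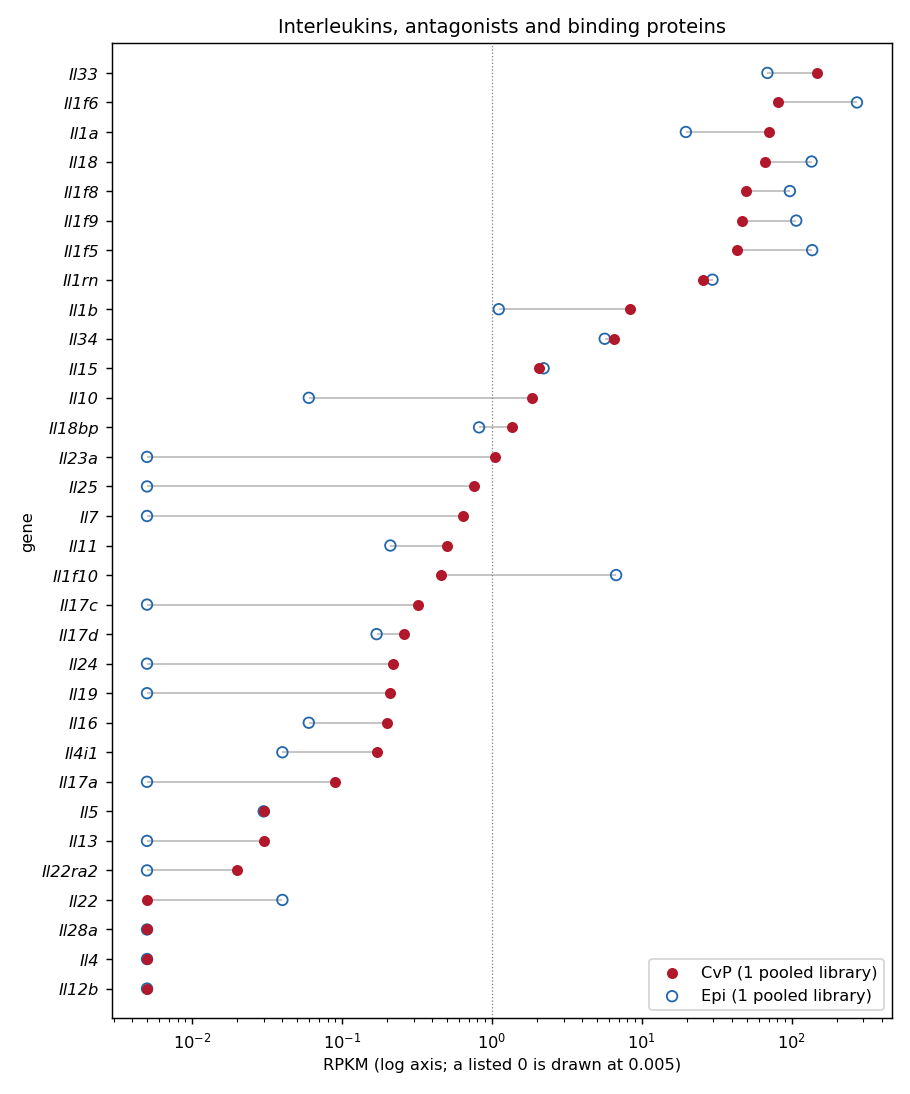
RPKM (x axis, log scale, a listed 0 drawn at 0.005) of each ligand, antagonist and other member (y axis) in CvP and Epi libraries, 1 point per library with no error bars since replicates were absent. *Il1f6*, *Il1f5*, *Il18*, *Il1f9* and *Il1f8* lie further right in Epi, and *Il33*, *Il1a*, *Il1b* and *Il10* in CvP.

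Of the remaining ligands, *Il23a* and *Il7* were found in CvP alone. *Il23a*, a subunit of IL-23, had an RPKM of 1.04 in CvP (40 reads) and 0 in Epi, at least 13.1-fold higher, while *Il12b*, the subunit it pairs with, was listed at 0 in both. *Il7*, a growth factor of lymphocytes, had 0.64 (45 reads) and 0, at least 14.7-fold higher. *Il34*, a ligand of the CSF-1 receptor, had 6.47 and 5.65, a ratio of 1.15 (0.974 to 1.35), and *Il15*, which sustains NK cells and intraepithelial lymphocytes, 2.07 and 2.21, a ratio of 0.937 (0.717 to 1.22). For neither gene did the counting interval exclude equal levels. *Il11*, a ligand of the IL-6 family, had 0.50 and 0.21, and *Il16*, a chemoattractant of lymphocytes, 0.20 and 0.06.

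Of the chains of the IL-6 receptor, *Il6ra* was near equal between tissues and *Il6st* somewhat higher in CvP. *Il6st* (gp130), the signalling chain shared by the IL-6 family, had an RPKM of 11.7 in CvP and 8.37 in Epi, a ratio of 1.40 (1.30 to 1.51), and *Il6ra* 9.92 and 9.49, a ratio of 1.05 (0.953 to 1.15). *Il11ra1*, the IL-11 receptor, had 1.98 and 0.69, a ratio of 2.87 (1.98 to 4.24). Of the IL-4 and IL-13 receptor chains, *Il4ra* was higher in CvP, with 6.94 against 2.68, a ratio of 2.59 (2.30 to 2.92), and *Il13ra1* had 21.0 and 21.7, a ratio of 0.967 (0.912 to 1.03). The ligands *Il4* and *Il13* were at 0 in both libraries and at 0.03 in CvP alone.

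The receptor chains for IL-2, IL-3, IL-7, IL-12, IL-15, IL-21 and IL-23 had low RPKM values. *Il15ra*, the IL-15 receptor, was at 4.97 and 2.18 RPKM, a ratio of 2.28 (1.79 to 2.92), and *Il2rg*, the common gamma chain, 1.05 and 0.51, a ratio of 2.06 (1.23 to 3.55). *Il3ra*, the IL-3 receptor, had 0.48 (19 reads) and 0.03 (1 read), a ratio of 16.0 (2.54 to 665). *Il7r* had 0.49 and 0.17, *Il2rb* 0.24 and 0.03, *Il2ra* 0.23 and 0.06, and *Il21r* 0.17 and 0.01. *Il12rb2*, a chain of the IL-12 receptor, was higher in Epi, with 0.70 against 1.03, a ratio of 0.680 (0.480 to 0.956), and *Il23r* had 0.13 in both.

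**Figure D4:**
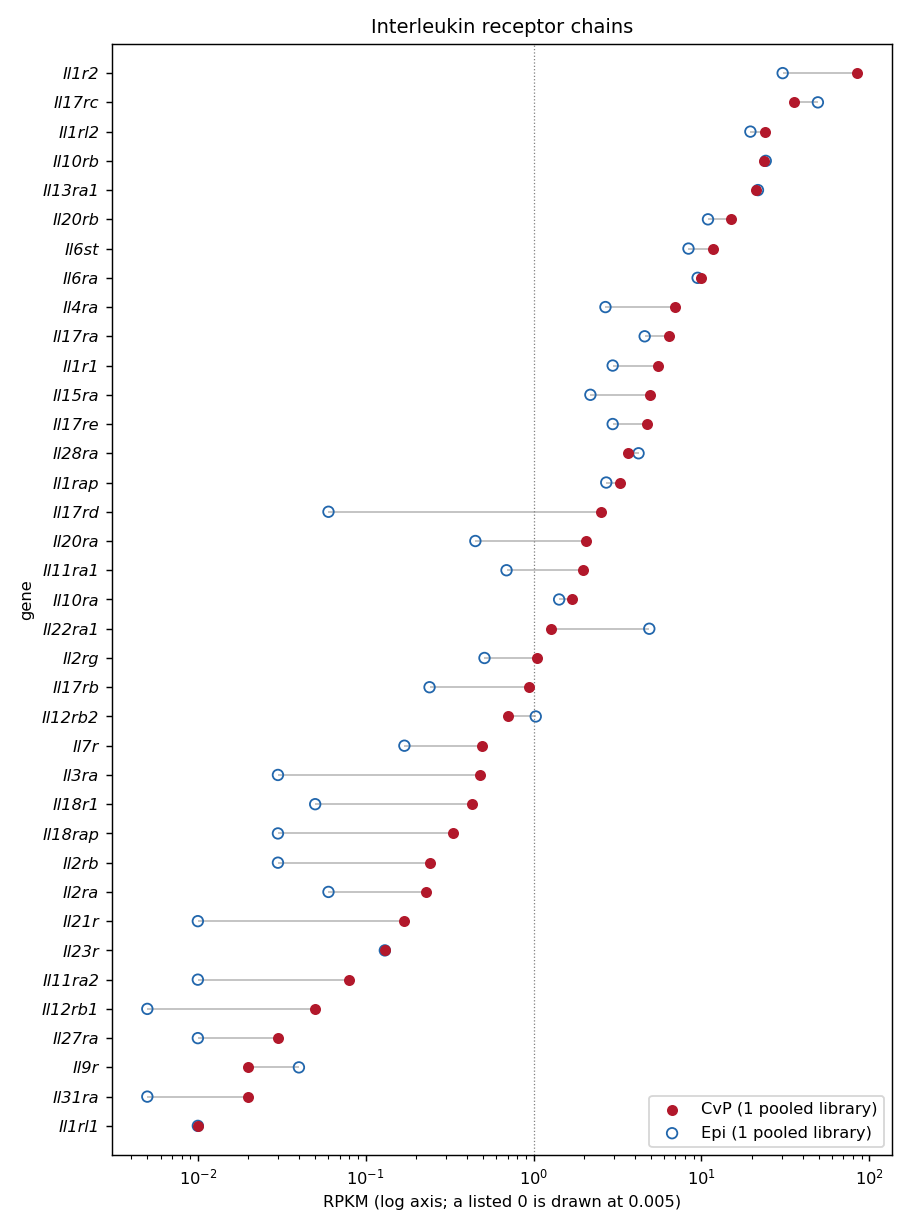
RPKM (x axis, log scale, a listed 0 drawn at 0.005) of each receptor chain (y axis) in CvP and Epi libraries, 1 point per library with no error bars since replicates were absent. The points lie close together for *Il10rb*, *Il13ra1* and *Il6ra*, and furthest apart for *Il17rd*, *Il21r* and *Il3ra*, while that of *Il22ra1* lies further right in Epi.

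Leukocyte markers were also higher in CvP. In the 30 listed leukocyte marker rows, 13 were at least 3-fold higher in CvP and 0 in Epi, against 15.0% and 1.63% of all rows, and their summed RPKM was 152 in CvP and 35.6 in Epi. All 3 pan-leukocyte genes (9.91 against 2.03), 5 of 6 macrophage genes (31.3 against 6.69) and 2 of 4 dendritic and Langerhans cell genes (63.4 against 21.7) were among the 13. Macrophage and pan-leukocyte genes were thus the leukocyte lists in which most members were called. Of the innate lymphoid and NK cell genes, 1 of 5 was, *Gzma*, at 38.2 in CvP and 0 in Epi, with *Klrb1c* at 0 in both. Of 3 B cell genes 1 was (0.85 against 0.17, *Cd79a* and *Cd79b* at 0 in Epi), and of 2 neutrophil genes 1 was (2.20 against 0.01), with *Elane* at 0 in both. The only mast cell gene analysed, *Cpa3*, was at 0 in CvP and 0.03 in Epi. The sums rested on few genes. *Cd74*, of the dendritic and Langerhans cell list, had 60.6 in CvP and 19.9 in Epi, and with *Gzma* it supplied most of the 152 in CvP. Of the 30 rows, 4 were higher in Epi, among them *Cd207*, a Langerhans cell marker, with 0.85 in CvP and 1.33 in Epi. Fibroblast genes summed to 27.5 in CvP and 128 in Epi, with 1 of 5 called in each direction and *Lum* at 0 in CvP, and endothelial genes to 2.79 and 0.25, with 1 of 3 called in CvP. The part of other cell types in the interleukin ratios was not tested, and in pooled tissue fewer cells of a type and less RNA per cell cannot be told apart.

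The share of members called changed with expression level, as it did for all rows. At a mean RPKM of 0.1 to 1, 11 of 21 members (52.4%) were at least 3-fold higher in CvP, against 36.4% of all rows at that level, and the median log2 ratio was 1.61 against 1.10. At 1 to 10, 3 of 18 members (16.7%) were called in CvP, against 17.8%, with a median of 0.57 against 0.69. At 10 and above, 1 of 15 (6.67%) was called in CvP, against 5.11%, and 2 of 15 (13.3%) in Epi, against 1.77%, with a median of -0.05 against 0.19. The CvP calls among the members thus lay mainly at low RPKM, where few reads were counted, and the Epi calls of *Il1f5* and *Il1f6* at high RPKM. Below 0.1, none of 17 members and none of 3127 rows was called, since a pseudocount of 0.1 leaves no room for a 3-fold call there.

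**Figure D5:**
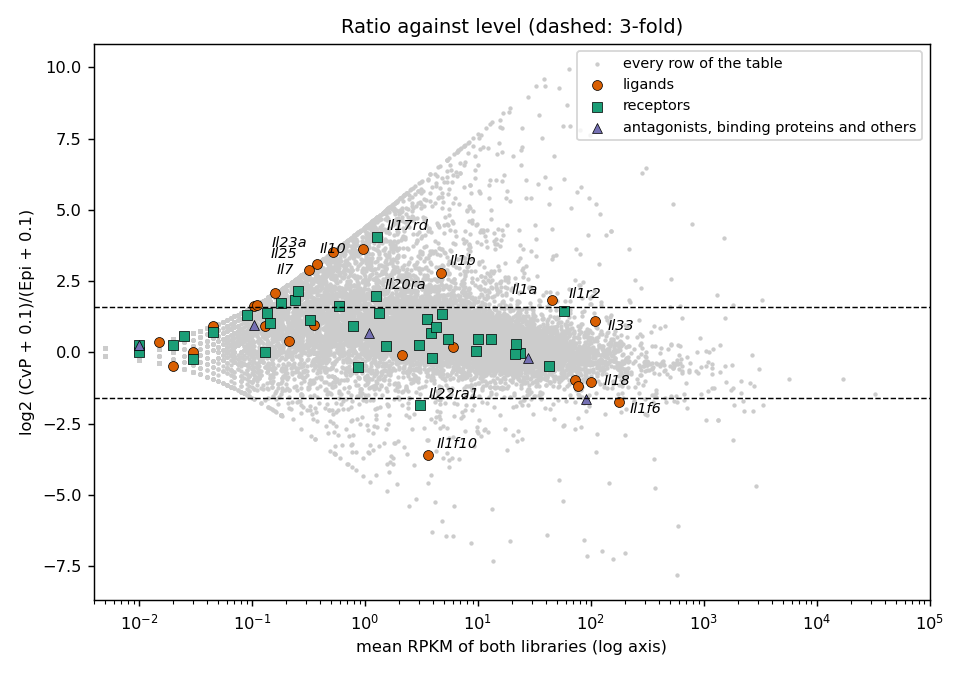
Log2 CvP/Epi ratio (y axis, RPKM + 0.1) against the mean RPKM of both libraries (x axis, log scale) for every row (grey) and for ligands, receptors and other members (coloured), with dashed lines at 3-fold. Most members above the upper line lie between 0.1 and 1, while *Il1f6* and *Il1a* pass 3-fold in opposite directions above 10.

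In all, 37 members reached an RPKM of 1 in at least 1 library (12 ligands, 22 receptors and 3 others), and 34 were below 1 in both. Of these 34, 9 were past 3-fold and are named above. The other 25 rows included *Il9r*, *Il12rb1*, *Il27ra*, *Il31ra* and *Il22ra2*, a soluble IL-22 binding protein, at no more than 0.05, *Il11ra2* at 0.08 and 0.01, *Il4i1*, an amino acid oxidase, at 0.17 and 0.04, and *Il5*, at 0.03 in both. At or below 3 estimated reads in both libraries were 12 members, with RPKM values of at most 0.09, and *Il4*, *Il12b* and *Il28a* were listed at 0 in both. These 12 did not pass the floor of 3 reads in either library, so their expression was not settled at this depth, and no fold is given. In the Epi, 14 members were listed at 0, and in CvP 4.

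Partner cytokines and receptor chains without an Il symbol were taken as a list of 20 genes. Of these, 9 were at least 3-fold higher in CvP and 0 in Epi, against 15.0% and 1.63% of all rows, with a median log2 ratio of 1.41 against 0.49. *Csf3*, the granulocyte growth factor, had an RPKM of 2.72 in CvP (109 reads) and 0 in Epi, at least 35.8-fold higher. *Sigirr*, an inhibitory receptor of the IL-1 family, had 4.16 and 0.56, a ratio of 7.43 (5.09 to 11.2). *Ebi3*, a subunit of IL-27, had 0.75 and 0.06, a ratio of 12.5 (3.12 to 109). These 3 genes were lower in both libraries than the main IL-1 family ligands. *Csf1r*, the receptor of *Il34*, and its other ligand *Csf1* had ratios of 4.09 (3.15 to 5.37) and 4.68 (3.37 to 6.64), from 2.74 and 1.78 in CvP and 0.67 and 0.38 in Epi, whereas *Il34* itself was near equal. *Csf2rb*, a chain shared by the IL-3, IL-5 and GM-CSF receptors, had 1.37 and 0.32, and the IL-6 family ligands *Lif*, *Cntf* and *Osm* had 0.75 and 0.13, 0.52 and 0.09, and 0.20 and 0.

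Of the signalling genes, 3 of 15 JAK-STAT and SOCS genes were at least 3-fold higher in CvP and 0 in Epi, with a median log2 ratio of 1.13 against 0.49 for all rows. The CvP share was thus near the 15.0% of all rows. *Socs2*, an inhibitor of growth hormone and cytokine signalling, had the highest RPKM of this list in CvP, 57.5, against 1.24 in Epi, a ratio of 46.3 (39.3 to 54.9). *Stat4*, which acts downstream of IL-12, had 0.91 (77 reads) and 0.04 (3 reads), a ratio of 22.8 (7.50 to 113), and *Jak3*, the kinase of the common gamma chain, 1.31 and 0.33, a ratio of 3.97 (2.77 to 5.82). *Stat6*, which acts downstream of IL-4 and IL-13, was the highest in Epi, with 40.0 against 39.2 in CvP. Of 16 adaptor and inflammasome genes, 3 were at least 3-fold higher in CvP and 0 in Epi, also near the share in the table, and the median log2 ratio of 0.38 was below that of all rows. They were *Casp4*, a caspase that senses cytosolic lipopolysaccharide, with 4.09 and 0.58, *Gsdmd*, the pore-forming protein of pyroptosis, with 1.25 and 0.14, and *Nlrp3*, an inflammasome sensor, with 0.53 and 0.06. The highest of the list was *Pycard*, the inflammasome adaptor, with 68.6 in CvP and 79.3 in Epi.

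Several values are uncertain for reasons of annotation. For 22 of the 71 members the table lists a length over 1.5 times the longest coding transcript, up to 9.38 times for *Il1rl2* (18.3 against 1.95 kb), which bears on levels between genes but not on the ratio of a gene between libraries. Exons of *Il10rb* share 569 bases with *Ifnar2*, and those of *Il2rg* 728 bases with Gm20489, both on the same strand. On the opposite strand, exons of *Il16* share 1202 bases with *Stard5*, and those of *Il1a* 222 bases with the antisense gene Gm14023. Further members share exon bases with genes of the opposite strand, among them *Il1rap* (552), *Il5* (417), *Il11ra2* (401) and *Il7* (105). Whether the counting used strand is not given in the sources used here.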

How the data were processed

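Poly(A) RNA was analysed in 2 libraries of mouse tongue, 1 of the CvP and 1 of the Epi. Per the labels and the methods, the authors mapped single-end reads of 75 bases with Bowtie 0.12.7 to NCBI37/mm9 and deposited RPKM values from ERANGE, with the deposited CvP/Epi ratio column not used here. How reads with several matches were counted is not given in the sources used here. No mapped read was available as a count, so no count test was made. Whole reads were recovered within 0.1 read in 96.4% (CvP) and 97.4% (Epi) of the values of rows up to 0.5 kb with fewer than 20 reads. The length used to estimate a gene's reads was that of the table or that of its longest coding GENCODE M1 transcript, whichever was shorter.

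Rows were called at 3-fold after adding a pseudocount of 0.1, so that most changes of genes with low RPKM are understated. For *Il17c*, *Il19* and *Il24*, listed at 0 in Epi, the call instead exceeded the lower bounds of 1.95, 1.99 and 2.28-fold, and so rests on the pseudocount. The members, lists and tests were chosen with earlier results of these data known. The genes named were every member that reached an RPKM of 1 or was past 3-fold, the genes of the partner, JAK-STAT and adaptor lists that were past 3-fold or highest, and the marker genes at 0, except 1 gene that is not reported here. *Krt5*, *Krt14*, *Gzma*, *Cd74*, *Cd207*, the low members given by value, and the genes whose upstream sequence is printed were chosen after their values were seen. The scripts were tested on simulated data. Alternatives were other pseudocounts, folds, filters and scalings. Calculations used Python 3.11.15, scipy 1.17.1, pandas 2.3.3, numpy 2.4.6 and, for the figures, matplotlib 3.10.9.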

Additional observations from a re-analysis of the deposited data

How the results depend on the processing

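No paired analysis was possible because replicates were absent from both tissues. The counts of 15 members, 9 ligands and 6 receptor rows at least 3-fold higher in CvP, and of 4, 2 and 1 in Epi, depended on the settings. With a pseudocount of 1, the CvP counts were 3 members, 2 ligands and 1 receptor, 0 receptors were called in Epi and the receptor median was 0.21. With a pseudocount of 0.01 they were 28 member rows and 14 receptor rows, which count *Il11ra2* 3 times, and the ligand median was 1.11. Among members with a mean RPKM of at least 0.5, the CvP counts were 7 members, 4 ligands and 3 receptors. At 2-fold they were 24 members and 14 receptors, with 4 ligands in Epi, and at 5-fold 6 members, 5 ligands and 1 receptor, with 1 member, 1 ligand and 0 receptors in Epi. With ratios divided by the median ratio, the CvP counts were 8 members and 2 receptors and the receptor median was 0.27, and with the trimmed mean ratio they were 8 and 2, with 0.26. Rescaled to a common sum, they were 23 members and 12 receptors, with 2 members and 1 ligand in Epi and a ligand median of 0.91. Centred on rows of the same level, an alternative added after seeing the data, the CvP counts were 7 members, 5 ligands and 2 receptors, the Epi counts 2 members and 1 ligand, and the receptor median 0.0772. Over all 18498 rows, the CvP and Epi counts moved too, from 2766 and 302. They were 923 and 151 with a pseudocount of 1, and 4511 and 758 with 0.01. Among 13083 rows with a mean RPKM of at least 0.5 they were 1958 and 240. At 2-fold they were 5031 and 662, and at 5-fold 1495 and 144. The median ratio gave 1966 and 519, and the trimmed mean 1945 and 525. The common sum gave 4162 and 339, and centring by level 1239 and 797. The CvP share of the calls, 90.2%, became 79.1% with the median ratio, 78.7% with the trimmed mean, 92.5% with the common sum and 60.9% with centring by level. Of 46 named members under these pseudocounts and scalings (276 values), none of the 19 called genes changed sign, while 13 uncalled genes did in 22 values: *Il10ra*, *Il10rb*, *Il13ra1*, *Il15*, *Il17ra*, *Il18bp*, *Il1rap*, *Il1rl2*, *Il1rn*, *Il28ra*, *Il2rg*, *Il34* and *Il6ra*. For the called genes this outcome was largely set in advance and lends the calls no support. A pseudocount cannot change a sign, and division by the median ratio shifts a log2 ratio by only 0.39. Without the decoy and shared chains, or with each symbol once, the receptor counts at the main pseudocount and fold stayed within 1.5 times. The depth limited genes with few reads, such as *Il17c*, *Il19* and *Il24*, and the absence of replicates limits every ratio to these 2 pools.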
